A study of Mus musculus with 4 samples.

Results

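Art2b and 6 other genes with which a T cell senses and clears extracellular NAD and purines (P2rx7, P2rx4, Cd38, Nt5e, Entpd1 and Adora2a) were examined in naive CD4 T cells lacking BTG1 and BTG2. Art2b was chosen by its measured difference between the groups compared here, so its own difference is a description and not a test. The others were picked for their function, with earlier results of these libraries known. These are 7 of 48858 annotated genes, and 5 of the 7 passed the filter on low counts and were among the 12863 genes tested. Cd38 and Entpd1 did not pass it and are given as counts, with their values from a fit without the filter. One annotated copy of the related gene Art2a, the polymorphic pseudogene Art2a-ps, was followed as a possible source of shared reads.

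The study compared 2 wild-type (WT) with 2 double-knockout (DKO) libraries of rRNA-depleted total RNA. All mice carried loxP-flanked Btg1 and Btg2. WT were littermate controls, labelled Btg1f/f Btg2f/f, and DKO mice, labelled Btg1f/f Btg2f/f-CD4-Cre, also had the CD4-Cre transgene, which deletes floxed genes throughout the T cell lineage from the thymus on, so the loss was not limited to resting cells. Cells were sorted as TCRb+, CD4+ and CD25- with a naive surface phenotype that included low CD44. No treatment is listed, and the animals' age is not given in the sources used here.

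ART2.2, the protein of Art2b, is anchored on the T cell surface and transfers ADP-ribose from extracellular NAD to neighbouring proteins. One target is P2X7, an ATP-gated cation channel, which opens when so modified and can trigger shedding of CD27, phosphatidylserine exposure and cell death. CD38 degrades NAD. CD39 (Entpd1) strips phosphates from ATP and ADP, CD73 (Nt5e) turns the resulting AMP into adenosine, and the adenosine receptor of the Adora2a gene answers adenosine by raising cAMP.

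Because Art2b and Art2a-ps are near-identical in places, the bases that separate them decide how reads can be assigned. Over the coding sequence of Art2b-201 (870 bases) and that of Art2a-ps (864 bases), 755 of 864 compared bases (87.4%) were identical, with 109 differences, 6 gap columns and a longest identical run of 125 bases. The 60-base stretch with the most differences, positions 490 to 549 counted from 1 at the first base of the Art2b coding sequence, is shown first, with the 24 differing bases in capitals. Positions 466 to 498 are shown next, with the codon that is a stop in the copy in capitals. All sequences are from the GENCODE M21 transcripts on GRCm38, 5′ to 3′.
Art2b, most differences: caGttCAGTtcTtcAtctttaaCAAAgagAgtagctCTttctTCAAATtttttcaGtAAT
Art2a-ps, most differences: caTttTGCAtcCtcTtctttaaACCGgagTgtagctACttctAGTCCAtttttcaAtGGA
Art2b, codon of the stop: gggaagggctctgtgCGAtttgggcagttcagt
Art2a-ps, codon of the stop: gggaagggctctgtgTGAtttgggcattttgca

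The substitution C481T makes codon 161 of 288 a stop in the reference sequence of Art2a-ps, whereas the first stop of Art2b-201 is codon 290. Of 2807 different 31-base words in the Art2b transcripts, 245 also occurred in Art2a-ps, and 302 (10.76%) occurred in any other gene. The 245 shared words were 19.97% of the 1227 words of the copy. Reads within such words cannot be assigned by sequence, and kallisto, the authors' quantifier, divides them by estimate. A further pair of sequences for each gene separates transcripts described further on. Art2b-201 holds 9 bases, in capitals, at an exon junction that Art2b-202 lacks, within positions 767 to 796 of the Art2b-201 coding sequence. P2rx7-208 has its own first exon and starts its coding sequence, with the start codon in capitals, unlike P2rx7-203.
Art2b-201: acattgatttcaGTATATCAGgatccagag
Art2b-202: acattgatttcagatccagag
P2rx7-203: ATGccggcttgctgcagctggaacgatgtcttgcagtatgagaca
P2rx7-208: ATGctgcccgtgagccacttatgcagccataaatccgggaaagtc

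The libraries held 13889894 to 17827631 estimated counts, and both DKO libraries were deeper than both WT libraries. The implied fragment length was 119.8 and 123.8 bases in WT and 133.5 and 142.2 bases in DKO, and nuclear protein-coding genes took 30.4 and 30.7% of the WT counts against 35.4 and 40.4% of the DKO counts. Whether these differences have a part in the values below was not tested. In the DKO libraries 103 and 125 estimated counts were left of Btg1, against 7378 and 5443 in WT, and 5 and 7 of Btg2, against 1295 and 1067. T cell markers summed to 1440 and 1770 counts per 1000000 (CPM, with library sizes scaled by TMM) in WT and to 1790 and 1770 in DKO, and naive T cell markers to 2770 and 3140 against 3100 and 3050. Of the 7 naive markers tested, 5 had both DKO values above both WT values and 0 below, beside 19.9% and 18.8% of all genes tested. One of them, Dapl1, was called higher, at 51.7 and 66.7 CPM in WT and at 138 CPM in both DKO libraries (log2 1.22, SE 0.16, edgeR adjusted p = 0.0384). For 2 libraries against 2, the smallest p that an exact permutation test of both sides allows is 0.333, so tests come from edgeR's quasi-likelihood fit over all genes with Benjamini-Hochberg adjustment. Its p-values measure the spread between these libraries. In bulk RNA, fewer cells of a type and less RNA per cell cannot be told apart.

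Art2b was higher in DKO and was the 1 member past the threshold, an adjusted p of 0.05. Its estimated counts were 197.3 and 136.2 in WT and 546.8 and 643.9 in DKO. Scaled to library size, Art2b stood at 14.2 and 11.8 CPM in WT and at 32.2 and 29.7 CPM in DKO. The DKO values lay close together and well above both WT values, with no overlap. The means were 13 ± 1.7 and 31 ± 1.74 CPM (SD, n = 2 each), 2.39-fold apart, a log2 fold change of 1.26 (SE 0.16) with an edgeR adjusted p of 0.0384. Over all genes tested, 0.0544% (7 genes) were called higher in DKO, 19.9% had both DKO libraries above both WT libraries and 18.8% had both below. Since this contrast chose Art2b, nothing is read from that comparison. Just inside the threshold lay Ms4a4c, also at an adjusted p of 0.0384, and just outside lay the small nucleolar RNA gene Gm25617, at 0.0534. The next member, Nt5e, stood at 0.415. The call of Art2b ended without DKO replicate 1 (log2 1.22, edgeR adjusted p = 0.0933), and a few other settings that ended it are given with the processing.

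**Figure D1:**
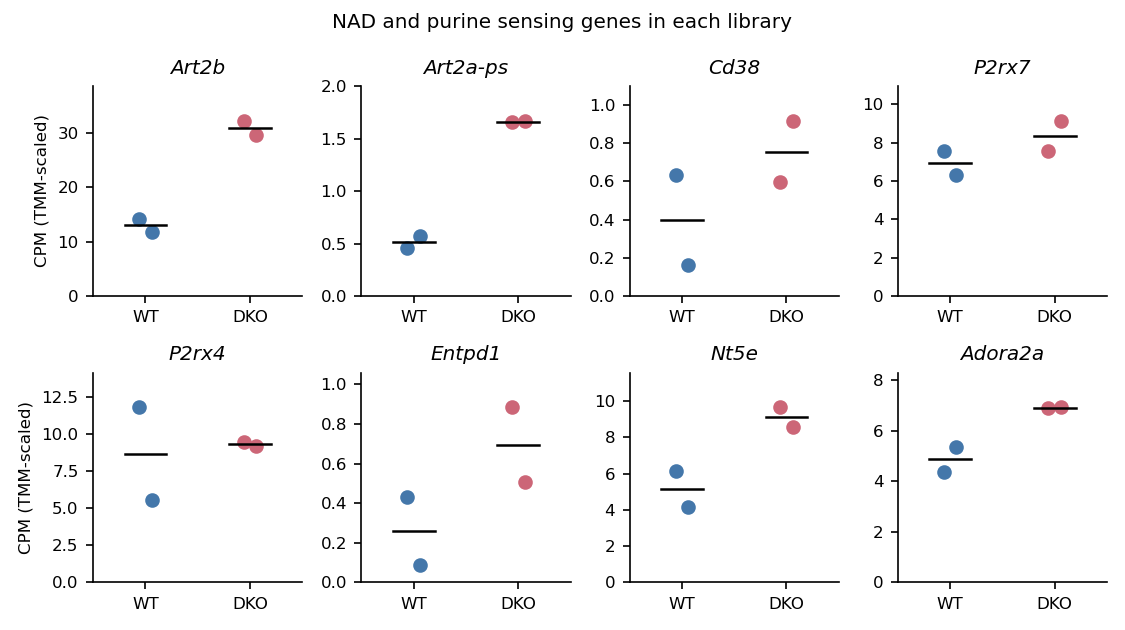
Expression of the 7 members and of Art2a-ps in each library, in CPM with TMM-scaled library sizes (vertical axes start at 0 and differ between panels). Points are single libraries and black lines are group means; both DKO points lie above both WT points for Art2b, Art2a-ps, Entpd1, Nt5e and Adora2a, and the groups overlap for Cd38, P2rx7 and P2rx4.

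Both annotated transcripts of Art2b carried the difference. Art2b-202, the full-length form of 2819 bases with a 3′ UTR, had 145 and 80.9 estimated counts in WT and 346 and 459 in DKO. Art2b-201, annotated as 870 bases of coding sequence alone, had 52.6 and 55.2 in WT and 200 and 185 in DKO. Their log2 fold changes were 1.27 (SE 0.26) and 1.26 (SE 0.34). In a fit of all 27379 transcripts tested, of which edgeR called 0 higher and 2 lower, their adjusted p was 0.808 and 0.846. Art2b-202 took 73.4 and 59.4% of the gene's counts in WT and 63.4 and 71.3% in DKO, so the shares overlapped. The forms share most of their bases, and the split between them is kallisto's estimate.

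Art2a-ps was far less abundant than Art2b but was likewise higher in both DKO libraries. Its estimated counts were 6.3 and 6.6 in WT and 28.1 and 36.1 in DKO. On the scale of CPM that was 0.455 and 0.573 against 1.66 and 1.67, without overlap. Its log2 fold change of 1.67 (SE 0.68) had an edgeR adjusted p of 0.578. Per total counts, without TMM scaling, the DKO to WT ratio was 4.13, with an exact 95% interval of 2.25 to 8.18 that covers counting error only. With the counts of Art2b and Art2a-ps summed as 1 gene, the log2 fold change was 1.27 and the edgeR adjusted p 0.0384. With so few counts on Art2a-ps, the sum could hardly differ from Art2b alone, so it cannot show whether reads were shared. How many of the Art2a-ps counts are reads of Art2b was not tested.

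The transcript of CD38, the surface enzyme that breaks down NAD and so removes the substrate of ART2.2, was almost absent. Protein was not measured. Cd38 had 8.8 and 1.9 estimated counts in WT and 10.1 and 19.8 in DKO, or 0.635 and 0.162 against 0.595 and 0.916 CPM. The groups overlapped, because WT replicate 1 lay above DKO replicate 1. A floor of 3 counts corresponds to 0.168 to 0.216 CPM of a library's total, and WT replicate 2 was below it. The summed counts gave a DKO to WT ratio of 2.29 per total counts, with an exact 95% interval of 1.11 to 5.06 for counting error only. The direction in single libraries was mixed. Total counts leave out the TMM scaling, and with them the median log2 fold change of all genes was itself 0.33. In the TMM-scaled fit without a filter, Cd38 had a log2 fold change of 0.9 (SE 1.04, edgeR adjusted p = 0.92).

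Neither gene of an ATP-gated channel differed beyond the spread. P2X7, the channel that ART2.2 modifies, had 105 and 73 estimated counts in WT and 128 and 197.7 in DKO. P2rx7 stood at 7.54 and 6.30 CPM in WT and at 7.54 and 9.13 CPM in DKO, where WT replicate 1 and DKO replicate 1 were level. Its log2 fold change was 0.27 (SE 0.23, edgeR adjusted p = 0.836). P2X4, a related channel that also answers ATP and whose gene begins 16.1 kb past the end of P2rx7, had estimated counts of 164.3 and 64.4 for WT and of 161.1 and 199.1 for DKO. P2rx4 was at 11.8 and 5.56 CPM in WT, the highest and the lowest of its 4 values, and at 9.48 and 9.19 CPM in DKO. The log2 fold change of P2rx4 was 0.10 (SE 0.33, edgeR adjusted p = 0.973), and it turned to −0.32 without WT replicate 2.

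The channel genes differed in which transcripts took their counts. Mouse T cells are known to make a P2X7 variant with an alternative first exon that responds more readily to ADP-ribosylation. P2rx7-203, the long transcript with the usual first exon, had 63.8 and 35.9 estimated counts in WT and 75.6 and 157 in DKO (log2 fold change 0.62, SE 0.45). P2rx7-208, which starts from its own first exon, had 34.0 and 17.1 in WT and 22.7 and 25.9 in DKO (log2 −0.59, SE 0.68). Its share of the gene's counts was 32.3 and 23.4% in WT against 17.8 and 13.1% in DKO, lower in both DKO libraries. The share of P2rx7-203 overlapped, at 60.8 and 49.2% in WT against 59.1 and 79.4% in DKO. How often the shares of other transcripts separate these groups was not tested. Both transcripts had an adjusted p of 1 in edgeR's transcript fit, and whether P2rx7-208 is the known variant was not examined. For P2rx4, transcript types that are not annotated as coding took 63.2 and 25.6% of the counts in WT and 38.6 and 60.5% in DKO, so the groups overlapped. Most of these fell on the retained-intron form P2rx4-208, at 41.7 and 22.7% of the gene in WT and 34.1 and 54.2% in DKO. P2rx4-208 alone went from 14.6 counts in WT replicate 2 to 68.6 in WT replicate 1. The coding form P2rx4-202 took 25.7 and 32.3 counts in WT against 71.1 and 48.9 in DKO, and the groups overlapped once scaled by TMM (log2 0.49, SE 0.61, edgeR adjusted p = 1).

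**Figure D2:**
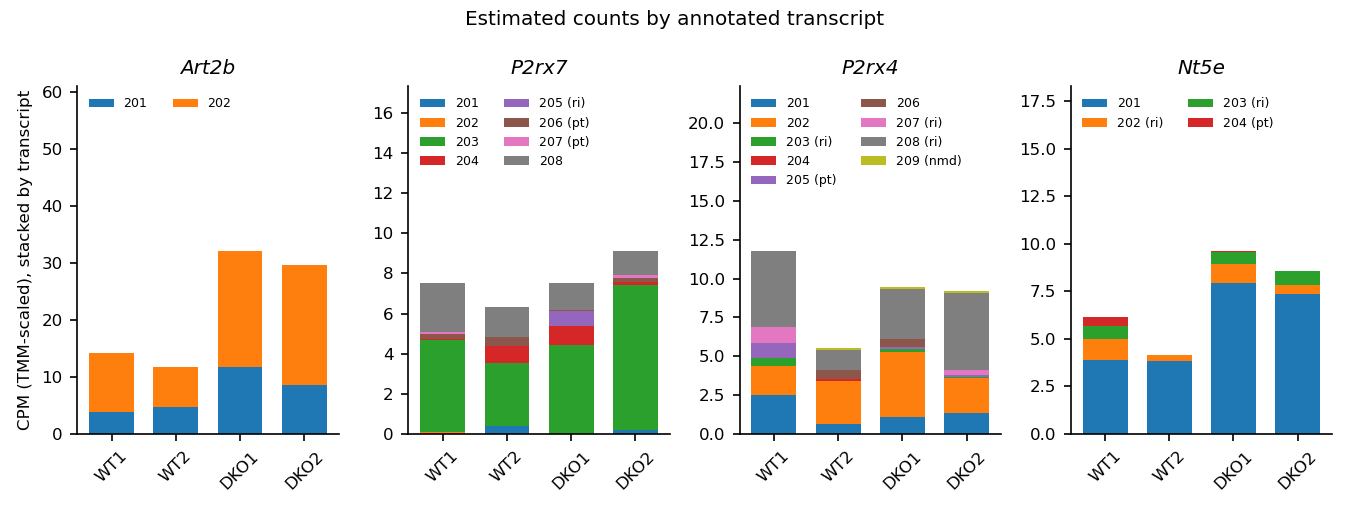
Estimated counts of Art2b, P2rx7, P2rx4 and Nt5e in each library, stacked by annotated transcript and scaled to CPM (TMM); ri, pt and nmd mark retained-intron, processed-transcript and nonsense-mediated-decay types. Both Art2b transcripts are taller in DKO, most of the excess of P2rx4 in WT1 over WT2 lies in types other than coding, and most of the Nt5e difference lies in Nt5e-201.

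The enzymes that turn ATP into adenosine both had higher values in DKO than in WT. Nt5e did not pass the test, and Entpd1 was too low to pass the filter. The transcript of CD39, which starts the chain, was near the floor. Entpd1 had 6 and 1 estimated counts in WT and 15 and 11 in DKO, or 0.431 and 0.0863 against 0.883 and 0.508 CPM. The groups did not overlap, and the ratio of summed counts per total counts was 3.12, with an exact 95% interval of 1.32 to 8.5 for counting error only. That ratio is without TMM scaling. In the TMM-scaled fit without a filter, Entpd1 had a log2 fold change of 1.4 (SE 1.16, edgeR adjusted p = 0.92). CD73, which makes adenosine, was better measured, with 85.5 and 48 counts of Nt5e in WT and 164 and 186.2 in DKO. Nt5e stood at 6.13 and 4.14 CPM in WT and at 9.65 and 8.60 CPM in DKO, again without overlap. Its means were 5.14 ± 1.41 and 9.13 ± 0.747 CPM (SD, n = 2 each), 1.77-fold apart, with a log2 fold change of 0.82 (SE 0.26, edgeR adjusted p = 0.415). Nt5e-201, the coding transcript, took 54.5 and 44.6 counts in WT against 135 and 160 in DKO (log2 0.98, SE 0.32, adjusted p = 0.925 in edgeR's transcript fit). The 2 retained-intron forms of Nt5e had at most 16.9 counts in any library.

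CD73 and CD39 are abundant on regulatory T cells, so the marker transcripts of those cells are given beside them. The 11 regulatory T cell markers summed to 74.2 and 97.5 CPM in WT and to 151 and 167 CPM in DKO. Of the 10 tested, 9 had both DKO libraries above both WT libraries and 0 both below, beside 19.9% and 18.8% of all genes tested. By edgeR 0 were called, with 7 higher and 0 lower at an unadjusted p below 0.05, and the median log2 fold change was 1.04 against −0.01 over all genes. Foxp3, their defining transcription factor, stood at 1.80 and 2.53 CPM in WT and at 5.12 and 10.4 CPM in DKO (edgeR adjusted p = 0.180). Ikzf2 was at 4.31 and 3.37 against 8.30 and 15.7 CPM, whereas Ctla4 overlapped, at 3.37 and 3.54 against 3.18 and 3.97 CPM. Of the effector and memory markers, 4 of 6 tested had both DKO libraries above both WT libraries and 0 both below, and the list summed to 51.5 and 55.2 against 72.9 and 80.9 CPM. Cd44, its most abundant gene, was at 15.1 and 16.8 against 29.3 and 28.6 CPM (log2 0.86, edgeR adjusted p = 0.101). Lgals1 overlapped, at 9.40 and 12.7 against 8.77 and 9.74 CPM. Of the follicular helper markers, which mark cells that also carry CD73, 2 of 4 tested lay above and 0 below, and the list summed to 17.1 and 20.3 against 21.9 and 27.3 CPM without overlap. Cxcr5 was at 1.32 and 1.39 against 2.50 and 3.09 CPM, and Pdcd1 at 1.22 and 0.691 against 1.53 and 4.57 CPM (edgeR adjusted p = 0.610 and 0.549). Bcl6, the most abundant gene of that list, overlapped at 8.33 and 10.7 CPM in WT against 10.6 and 11.4 CPM in DKO. Sh2d1a and the untested Il21 and Tox2 overlapped as well. The same shares of all genes, 19.9% and 18.8%, stand beside these counts. The part of the 3 lists in the values of Nt5e, Entpd1 and Art2b was not tested.

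Markers of cells outside the CD4 lineage gave mixed values. B cell markers summed to 140 and 183 CPM in WT and to 165 and 148 CPM in DKO, nearly all of it Ighm, and Ms4a1, which encodes CD20, was at no more than 0.143 CPM in any library. Myeloid markers summed to 14.1 to 15.6 CPM in WT and to 14.1 to 17.0 CPM in DKO, with S100a8 and S100a9 at 0. CD8 T cell markers, 3 of 5 tested with both DKO values above WT and 0 below (19.9% and 18.8% of all genes), summed to 71.3 and 84.9 against 101 and 94.4 CPM without overlap. Runx3, the most abundant gene of that list, overlapped at 38.7 and 47.0 CPM in WT against 47.9 and 45.4 CPM in DKO (log2 0.12). Of the CD8 chains, Cd8b1 was at 6.75 and 7.43 CPM in WT and at 8.53 and 12.9 CPM in DKO (log2 0.60, SE 0.25, edgeR adjusted p = 0.603), and Cd8a was at 0.431 and 0.0863 against 0.0630 and 0.237 CPM. The list for NK and innate-like cells, of which Ncr1 and Gzmb were at 0, summed to 6.34 and 7.02 against 7.45 and 9.75 CPM, also without overlap, and its 2 tested genes overlapped. The part of these lists in the members' values was not tested. Globin and platelet genes stayed at or below 1.75 CPM in sum, and the stromal list, mostly Pecam1, overlapped at 162 and 134 against 128 and 142 CPM.

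Adora2a, whose receptor adenosine activates, had higher values in DKO without passing the test. Adora2a had 61 and 62 estimated counts in WT and 117 and 150 in DKO. In CPM these were 4.38 and 5.35 against 6.89 and 6.92, so the DKO libraries were level with each other and above both WT libraries. The log2 fold change was 0.51 (SE 0.25, edgeR adjusted p = 0.662). Adora2a lies on chromosome 10, as does the deleted gene Btg1, 21282.2 kb away, and the WT littermates carried the same floxed Btg1 allele.

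Counting all 7 members, the lower DKO value exceeded the higher WT value for Art2b, Nt5e, Entpd1 and Adora2a, and the reverse held for 0 members. Among the 5 tested that was 3, Art2b included, which this contrast chose, and over all genes tested the shares were 19.9% and 18.8%. By edgeR 1 member was called higher and 0 lower. With library totals in place of TMM the median of all genes moved from −0.01 to 0.33, and with 5 RNA polymerase III transcripts as the reference it moved to 0.90. Art2b then stood at 1.59 and 2.15, Nt5e at 1.15 and 1.69, Adora2a at 0.86 and 1.46, P2rx7 at 0.62 and 1.19 and P2rx4 at 0.42 and 0.93, in that order of scaling. Nt5e passed edgeR's threshold under the polymerase III scaling (adjusted p = 0.0328), under which 472 genes were called higher and 22 lower, against 194 and 66 with library totals and 7 and 9 with TMM. The higher calls were thus 95.5%, 74.6% and 43.8% of all calls.

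**Figure D3:**
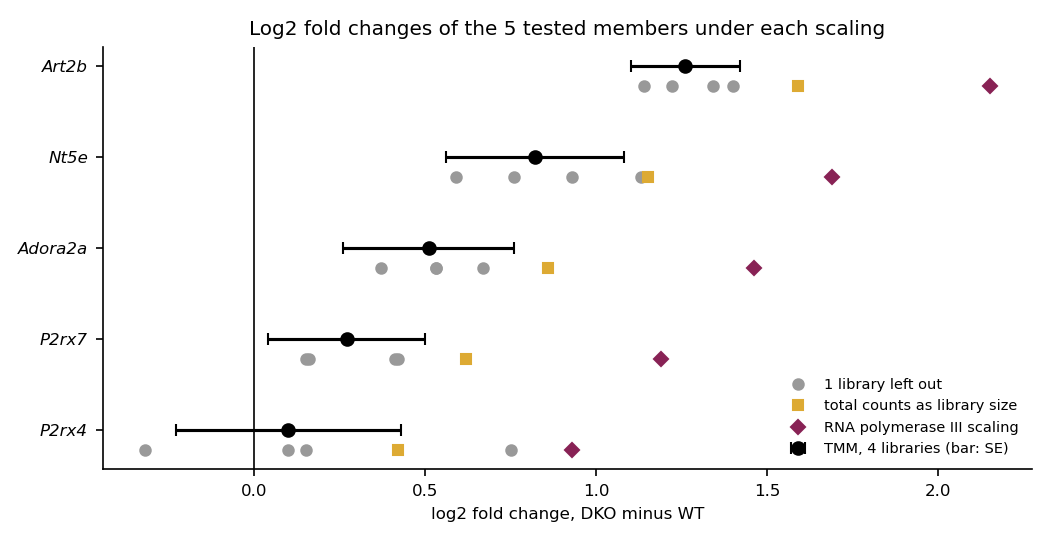
Log2 fold changes (DKO minus WT) of the 5 tested members. Black points with bars are the TMM-scaled edgeR estimates and their SE, grey points leave out 1 library each, and squares and diamonds use total counts and RNA polymerase III transcripts as the reference; Art2b lies between 1.14 and 1.4 with any library left out, and P2rx4 crosses 0.

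Per length of transcript, and counting coding transcripts alone, Art2b was the most abundant member in every library. Other transcript types are left out, which for P2rx4 in WT replicate 1 had TPM of 0.226, 0.151, 0.118 and 0.111. With all types counted, P2rx4 was above Art2b in that library. The deposited TPM of coding transcripts, summed per gene, were 0.755 and 0.650 for Art2b in WT. They are low because transcripts under 200 bases took 92.5 to 92.9% of the TPM of a library. In WT, P2rx7 followed at 0.214 and 0.154, P2rx4 at 0.171 and 0.187 and Adora2a at 0.150 and 0.157. P2rx7 overlapped both of the others, so this order is not resolved. Nt5e was lower, at 0.0857 and 0.0723, and Cd38 (0.0113 and 0.00373) and Entpd1 (0.00803 and 0.00824) lowest, overlapping each other. In DKO, Art2b was at 2.26 and 2.14 TPM above every other member. Adora2a (0.278 and 0.348) and P2rx4 (0.323 and 0.200) overlapped, so their order is not resolved. P2rx4, P2rx7 (0.201 and 0.262) and Nt5e (0.198 and 0.209) overlapped one another, so the gap seen in WT between Nt5e and both channels did not recur. Cd38 (0.0182 and 0.0320) and Entpd1 (0.0298 and 0.0111) were again lowest.

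Around Art2b, which lies on chromosome 7 at 101576970 to 101585600 (GRCm38, minus strand), the nearest genes showed mixed values. Art2a-ps lies 16.1 kb downstream on the same strand, at 101552453 to 101560865. Clpb, a mitochondrial disaggregase 78.0 kb away on the other side, had 12.1 and 10.6 CPM in WT and 10.5 and 11.3 CPM in DKO (log2 −0.06, edgeR adjusted p = 0.969). The pseudogene Gm7027, 2.6 kb away, had at most 11.2 counts and overlapping groups, as did the non-coding Gm35363, 38.6 kb away (log2 0.74, SE 0.81, adjusted p = 0.885). Pde2a, a cAMP and cGMP phosphodiesterase 64.1 kb downstream of Art2b on the opposite strand, was at 22.1 and 12.8 CPM in WT and at 46.5 and 44.9 CPM in DKO. Its log2 fold change was 1.38 (SE 0.24) with an edgeR adjusted p of 0.138.

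The low value of Pde2a in WT replicate 2 went with counts on an overlapping gene model. Gm45837, annotated over Pde2a on the same strand, had 117.3 estimated counts in WT replicate 2 and at most 0.7 in the other libraries. In a fit chosen after seeing the data, the counts of both were summed, which gave 22.2 and 23.0 CPM in WT and 46.6 and 44.9 CPM in DKO. The means were 22.6 ± 0.554 and 45.7 ± 1.2 CPM (SD, n = 2 each), 2.03-fold apart, with a log2 fold change of 1.02 (SE 0.13) and an edgeR adjusted p of 0.0362. Summing thus lowered the estimate while narrowing its error, and Pde2a passed the threshold.

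**Figure D4:**
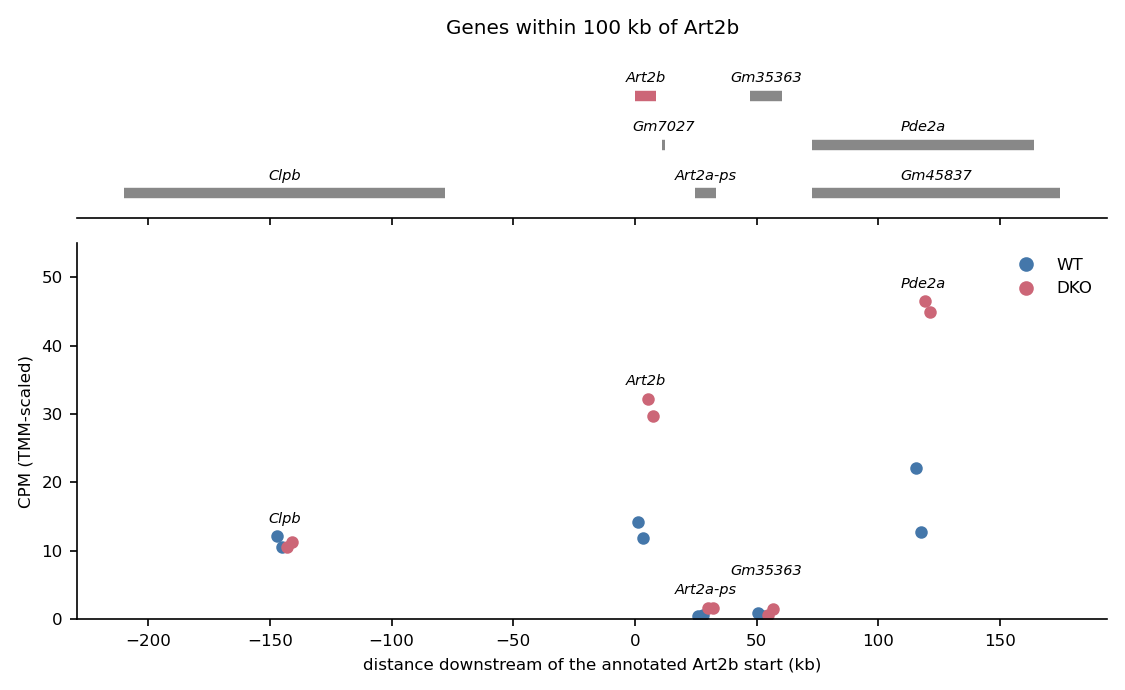
Genes within 100 kb of Art2b by distance downstream of its annotated start (kb, horizontal axis; bars in the upper panel are gene bodies), with the CPM (TMM-scaled) of the tested genes in each library in the lower panel. Blue points are WT and red points DKO; both DKO points of Art2b, Art2a-ps and Pde2a lie above both WT points, and those of Clpb and Gm35363 overlap.

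The other members lie apart from one another except for the channels. On GRCm38, P2rx7 spans 122643911 to 122691432 and P2rx4 122707544 to 122729738 on chromosome 5 (plus strand), and Cd38 lies on the same chromosome at 43868553 to 43912375 (plus strand). Nt5e is on chromosome 9 at 88327197 to 88372092, Entpd1 on chromosome 19 at 40612366 to 40741602 and Adora2a on chromosome 10 at 75316877 to 75334784, all on the plus strand. Genes annotated within the bodies of P2rx7, Cd38 and Entpd1 had at most 3.5 counts in any library, and 1 of them, AC166063.1, had no value. Of the 31-base words of the other members, 0% (Adora2a) to 4.5% (P2rx4) occurred in another gene.

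BTG1 and BTG2 recruit the CCR4-NOT deadenylase, and AU-rich elements in a 3′ UTR are known sites for other proteins that recruit it. The letters ATTTA were searched on the transcript strand in the 3′ UTR of the most abundant coding transcript with one. Art2b had 1 match in 1890 bases, Nt5e 2 in 1775, P2rx7 3 in 2985, Entpd1 3 in 2573 and Cd38 6 in 2032, and P2rx4 (731 bases) and Adora2a (848 bases) had 0. Over 10632 tested protein-coding genes the median was 1 match in a median of 904 bases, and 64.7% had at least 1. Per kb, Art2b had 0.529 matches against a median of 1.19. A match is a string of letters and not a site.

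The genes whose pattern over the 4 libraries was most like that of Art2b were Tram2, H2-Ob, Tiam1, Ctsw and Klhl28. Likeness was the Euclidean distance between log2 CPM profiles centred on their mean, among 7284 protein-coding genes with a mean of at least 5 CPM. The distances were 0.195, 0.238, 0.256, 0.278 and 0.320. Tram2 was at 3.73 and 3.37 CPM in WT and at 9.77 and 9.60 CPM in DKO. H2-Ob, a subunit of the class II accessory molecule H2-O, was at 7.46 and 7.25 against 15.9 and 15.7 CPM. Ctsw, a cathepsin of cytotoxic cells, was at 7.39 and 7.86 against 17.3 and 17.5 CPM. None of the 5 passed edgeR's test, with adjusted p-values of 0.0598 to 0.181.

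Beyond the members, 113 genes were drawn into 9 lists around the same pathway, and 80 of them were tested. By edgeR, 0 were called in either direction, with 7 higher and 2 lower at an unadjusted p below 0.05. The DKO libraries were both above WT for 30 (37.5%) and below for 10 (12.5%), beside 19.9% and 18.8% of all genes. Their median log2 fold change was 0.09 against −0.01 for all genes. With library totals the medians were 0.44 and 0.33, and with the polymerase III reference 1.02 and 0.90.

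Genes that write or remove ADP-ribose showed no common direction. Of 5 tested besides Art2b and its copy, 2 had both DKO libraries above WT and 2 below (19.9% and 18.8% of all genes). Their median was 0.24. Adprh, which removes ADP-ribose from arginine, the residue that ART2.2 modifies, stood at 8.61 and 12.5 CPM in WT and at 14.1 and 14.4 CPM in DKO (log2 0.43, SE 0.22, edgeR adjusted p = 0.662). Adprhl2, a hydrolase of ADP-ribose on serine, stood at 6.53 and 7.94 against 6.30 and 5.91 CPM (log2 −0.24).

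Besides the members, 3 genes of the P2X and P2Y list were tested, P2ry10, P2ry10b and P2ry14. The list follows gene names, and what these receptors bind was not examined. Of the 3, 0 had both DKO libraries above WT and 1 below (19.9% and 18.8% of all genes), with a median of −0.20. P2ry10, a G-protein-coupled receptor of lymphocytes, was the most abundant, at 51.7 and 38 CPM in WT and at 39.1 CPM in both DKO libraries. The related gene P2ry10b was at 6.54 and 5.03 against 3.54 and 4.54 CPM (log2 −0.52, SE 0.30, edgeR adjusted p = 0.711).

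The remaining ecto-nucleotidase list stayed near 0, with 1 of 5 above, 0 below (19.9% and 18.8% of all genes) and a median of 0.06. Entpd5, an enzyme of the endoplasmic reticulum that splits UDP and GDP, was at 22.5 and 21.2 CPM in WT and at 23.8 and 18.3 CPM in DKO. Acpp, a phosphatase that can also make adenosine from AMP, overlapped as well, at 11.0 and 8.20 against 7.88 and 9.91 CPM.

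Genes of adenosine uptake and removal had 6 of 8 above and 0 below (19.9% and 18.8% of all genes), with a median of 0.29. Slc28a2, a concentrating nucleoside transporter, was at 34.3 and 40.2 CPM in WT and at 42.6 and 44.5 CPM in DKO (log2 0.23). Adk, which phosphorylates adenosine to AMP, was at 6.60 and 11.4 against 11.9 and 13.2 CPM (log2 0.49). Dpp4, whose part in adenosine removal in mouse cells was not examined, was at 22 and 18 against 25.0 and 29.5 CPM (log2 0.45, SE 0.17, edgeR adjusted p = 0.528).

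Among genes for the release of ATP, 5 of 9 lay above and 0 below (19.9% and 18.8% of all genes), with a median of 0.22. Panx1, a channel through which ATP leaves the cell, was at 13 and 16.6 CPM in WT and at 21.4 and 18.3 CPM in DKO (log2 0.43, edgeR adjusted p = 0.610). Lrrc8a, the obligate subunit of volume-regulated anion channels, was at 48.0 and 55.5 against 60.2 and 56.1 CPM (log2 0.17). Slc17a9, the vesicular nucleotide transporter, was at 6.75 and 6.73 against 11.5 and 10.4 CPM (log2 0.70, SE 0.21, edgeR adjusted p = 0.354) and was chosen after its values were seen.

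Of genes acting after P2X7 opens, 6 of 10 lay above and 1 below (19.9% and 18.8% of all genes), with a median of 0.16. Adam10, a sheddase, overlapped at 48.0 and 52.5 CPM in WT and 49.9 and 51.9 CPM in DKO. Ano6, a phospholipid scramblase, was at 34.1 and 31.6 against 35.8 and 37.3 CPM (log2 0.15). Cd27, a costimulatory receptor shed after P2X7 activation, was at 68.2 and 83.1 against 106 and 101 CPM (log2 0.45, SE 0.14, edgeR adjusted p = 0.416).

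In the cAMP list, which follows the receptor of Adora2a, 8 of 16 lay above and 1 below (19.9% and 18.8% of all genes). Its median was 0.09. Gnas, the stimulatory G protein, overlapped at 136 and 165 CPM in WT and 154 and 166 CPM in DKO, and so did the protein kinase A subunit Prkacb, at 104 and 107 against 106 and 113 CPM. The phosphodiesterase gene Pde3b was at 111 and 103 against 149 and 139 CPM (log2 0.43, SE 0.13, edgeR adjusted p = 0.388). Pde2a, given above with the surroundings of Art2b, had the highest log2 fold change of this list.

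Genes for making and using NAD inside the cell were balanced. Of 9 tested for synthesis, 2 lay above and 2 below with a median of 0.02. Of 16 NAD users, 1 lay above and 3 below with a median of −0.02. Over all genes the shares were 19.9% and 18.8%. Nampt, the rate-limiting enzyme of NAD salvage, was at 14.2 and 13.2 CPM in WT and at 12.4 and 12.7 CPM in DKO (log2 −0.13). Nmnat3, an adenylyltransferase of NAD synthesis, was at 5.60 and 5.70 against 3.53 and 2.77 CPM (log2 −0.84, SE 0.30, edgeR adjusted p = 0.504). Parp1, a nuclear consumer of NAD in DNA repair, overlapped at 43.5 and 52.6 against 52.5 and 48.2 CPM, as did Parp14, at 91.0 and 103 against 100 and 94.2 CPM.

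**Figure D5:**
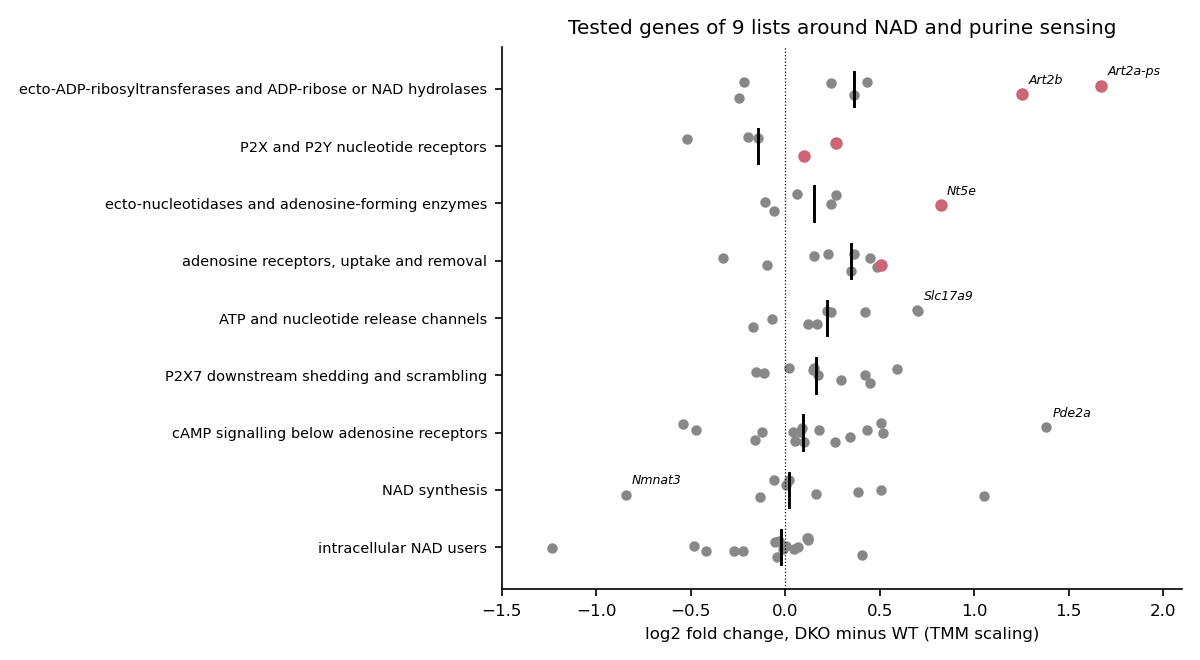
Log2 fold changes (DKO minus WT, TMM scaling) of the tested genes of the 9 lists. Each point is a gene, the 5 tested members and Art2a-ps are red, and black bars are list medians with members included; Art2b, Art2a-ps and Pde2a lie furthest to the right of 0.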

How the data were processed

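RNA of 2 WT and 2 DKO libraries was analysed, grouped by sample titles and genotype labels. The members and lists were chosen with earlier results of these data known. The submitters' processing notes name kallisto as the tool with which the authors estimated abundances, and mm10 and GRCm38 as builds. Its version, strand setting and annotation are not given in the sources used. The deposited files give estimated counts per transcript, not scaled for depth or length, and TPM, which the authors scaled for length and library, per the file headers. Effective lengths (bases) were deposited for each transcript in each library.

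Of 126782 transcripts, 125182 (98.7%) were joined by identifier to GENCODE M21, and 97.1% of their lengths equalled that release. Transcripts without a gene, 0.822 to 0.852% of the counts, were left out. Counts were summed to genes, rounded, filtered with filterByExpr and tested with edgeR 4.0.16 in R 4.3.3 (TMM, robust quasi-likelihood F test on genotype, Benjamini-Hochberg adjustment at 0.05). Log2 fold changes are DKO minus WT, and SE is that value over the square root of F. CPM use TMM-scaled library sizes, with factors of 0.939, 0.841, 1.034 and 1.225 for WT 1 and 2 and DKO 1 and 2. The common biological coefficient of variation was 0.2195. Without molecular identifiers that were used here, intervals and floors cover counting error only.

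Besides all members, genes were named by rule: up to 4 most abundant tested genes of each pathway list, any called one, the most abundant gene of each marker list, regulatory T cell markers, the 5 genes most like Art2b, and genes within 100 kb of it. Not every gene the rule takes is reported here, and pathway list genes outside it are marked. Of the marker genes, Dapl1, Lgals1, Cxcr5, Pdcd1, Sh2d1a, Il21 and Tox2 lie outside it and carry no mark. The same holds for Cd8a, Cd8b1, Ms4a1, S100a8, S100a9, Ncr1 and Gzmb. Sequences came from GENCODE M21 and were compared with Biopython 1.88. Alternatives used DESeq2 1.42.0, limma 3.58.1 on log2 of TPM plus 1 or 0.1, other scalings, filters, gene models and an effective length offset with transcript weights pooled over libraries. On simulated counts for 12315 genes of this comparison, the fit called 42 of 67 genes (62.7%) with a true log2 change of 1. It called 64 of 67 at 2 (95.5%), 65 of 66 at 4 (98.5%) and 27 of 12115 unchanged genes. The changed genes were drawn only from those above a floor on mean counts, so these rates do not cover low-count genes such as Art2a-ps. Beside the 42, 64 and 65 true calls, the 27 false ones were a larger share of all calls than the adjusted p threshold allows for.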

Additional observations from a re-analysis of the deposited data

How the results depend on the processing

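Art2b was higher in DKO under all 18 alternatives, 1 of them (Pde2a and Gm45837 summed) chosen after seeing the data, with log2 fold changes of 0.91 to 2.15, and stayed past the threshold in 14. Its call ended with limma on log2(TPM + 1) (0.91, adjusted p = 0.114) and log2(TPM + 0.1) (1.52, 0.108), with the GC trend removed (1.32, edgeR adjusted p = 0.0551) and without DKO replicate 1 (1.22). Leaving out each library in turn gave 1.14 to 1.4 for Art2b. For P2rx4 it gave −0.32 (without WT replicate 2) to 0.75. Nt5e passed only under the polymerase III scaling (1.69, edgeR adjusted p = 0.0328), and P2rx7, P2rx4 and Adora2a passed under none. With the replicate block, which treats same-numbered libraries as paired, Art2b stayed at 1.26 (edgeR adjusted p = 0.000137). A pairing of mice by genotype is mentioned in the labels, but not whether equal numbers mark such a pair or a litter. Deviations of WT and DKO replicate 1 from their group means correlated at −0.316 across 12863 genes. With 2 libraries per group this value cannot decide on pairing, because WT replicate 1 could belong with DKO replicate 2. The block was not used elsewhere, so any pairing is left out of the other fits.

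Counts of genes called, 7 higher and 9 lower with TMM, were 194 and 66 with library totals, 472 and 22 with polymerase III scaling, 55 and 133 with DESeq2, 141 and 254 without a filter, 13 and 18 with the effective length offset, 1 and 4 with TPM + 1, 1 and 5 with TPM + 0.1, 35 and 16 over protein-coding genes, 8 and 5 over coding transcripts, 3 and 2 with the GC trend removed, 8 and 9 with Pde2a and Gm45837 summed and 53 and 89 with the replicate block. They ranged from 12 to 34 and from 28 to 131 with 1 library left out, where the lone library of a group is assumed to vary like the other group. The causes were not tested. Depth limits Cd38 and Entpd1, which were below the filter, and Art2a-ps, with under 7 counts in each WT library.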

Other observations

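Pde2a, besides lying near Art2b, passed the threshold under more alternatives than any other of the 80 tested pathway list genes that are not members. The others of these passed only with library totals, under which 4 of these genes including Pde2a were called higher, or with the polymerase III reference, under which 9 were. Its log2 fold change was positive in all 18 alternatives, and 9 of them, the sum with Gm45837 included, put it past the threshold, among them DESeq2 (1.38, adjusted p = 0.000254), protein-coding genes alone (edgeR, 1.34, adjusted p = 0.0183) and the fit without WT replicate 2 (edgeR, 1.06, adjusted p = 0.0261). Without WT replicate 1 it was 1.83 (edgeR adjusted p = 0.00131). These 4 values use Pde2a without the counts on Gm45837.

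Other members of the cAMP and NAD lists, chosen after their values were seen, were Pde7a, a cAMP phosphodiesterase, at 20.3 and 13.9 CPM in WT and 21 and 27.9 CPM in DKO (log2 0.52, SE 0.22, edgeR adjusted p = 0.606), and Sirt7, a nucleolar NAD-dependent deacylase, at 31.7 and 31 against 24.8 and 22.1 CPM (log2 −0.42, SE 0.14, edgeR adjusted p = 0.460).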
